A study of Mus musculus with 6 samples.

Results

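Myeloid C-type lectin receptors are cell-surface proteins with which macrophages, dendritic cells and neutrophils recognise sugars and lipids of microbes and of damaged cells. Dectin-1, the product of Clec7a, binds fungal β-glucans and signals through a tyrosine motif in its own tail, whereas Dectin-2 and its relatives lack such a motif and signal through the adaptor FcRγ, the product of Fcer1g. Both routes recruit the kinase Syk, and Card9 then passes the signal on to NF-κB and cytokine genes. In the liver, Kupffer cells, recruited monocytes, dendritic cells and neutrophils are known to carry receptors of this family.

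The group described here holds 10 genes of 47643 in the deposited table: the receptors Clec7a, Clec4n, Clec4d, Clec4e, Clec5a, Clec12a and Clec10a, 7 in all, and the signalling genes Fcer1g, Syk and Card9. They were chosen by symbol, and Clec7a led the choice because its difference between the treated and untreated tumors was already known. The differences of these 10 genes between the groups are therefore given as a description without a test. Of the 10, the filter on low counts kept 9 and left out Clec5a.

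RNA was sequenced from liver tumors of FVB/N mice that carry LAP-tTA and tetO-MYC, in which a liver promoter (LAP) drives the transactivator and thereby a MYC transgene when doxycycline is absent. All mice drank water with 100 mg/L doxycycline up to 4 weeks of age, had MYC switched on for the next 8 weeks, and were then treated for 2 weeks. Vehicle was given to 1 group and the PRMT5 inhibitor GSK3326595, at 50 mg/kg/day, to the other, with 3 libraries each. PRMT5 is an enzyme that methylates arginine residues of proteins. The labels do not say that each library came from a separate animal, so errors and p-values reflect only how far these libraries vary, which may be technical. MYC was on in both groups, and its promoter acts in hepatocytes, whereas these lectin genes are known from myeloid cells. In bulk tissue fewer cells of a type and less RNA per cell cannot be told apart.

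The libraries held from 25814339 to 33621083 expected counts. Values below are CPM, that is, counts scaled to library size after TMM adjustment for differences in composition between libraries. GSK3326595 replicate 2 stood apart on the first principal component, at 103.1 where the other libraries lay between -50.2 and 9.37. Vehicle replicate 2 stood apart in 13 neutrophil markers, which summed to 272.5 CPM there and to between 3.82 and 17.4 CPM in the other libraries. The hepatocyte markers were abundant throughout, at a summed 8871 CPM or more. The drug's target Prmt5 averaged 67.9 ± 18.1 CPM without and 92.4 ± 39.4 CPM with the drug (SD, n = 3 each).

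Clec7a (ENSMUSG00000079293.11) lies on chromosome 6 at chr6:129461591-129472779 on the minus strand (mm10), and the GENCODE M21 annotation lists it as a polymorphic pseudogene, a class for genes that are intact in some strains and not in others. RefSeq promoter sequences of build GRCm38.p6 were found for 8 of the 10 genes. The 250 bases before the more upstream Clec7a start (chr6:129472786-129473035, minus strand) are shown because this gene had the largest difference of the group. The capitals mark GAGGAA, the purine-rich core bound by PU.1, a transcription factor of myeloid cells. The stretches of 40 bases from Clec4e (chr6:123289905-123289944, minus strand), Clec4d (chr6:123261857-123261896, plus strand) and Clec5a (chr6:40585838-40585877, minus strand) are shown for comparison, since these 3 genes followed another pattern across the libraries. Their capitals mark GAGGAA or TTCCTC, the same letters read from the other strand.
Clec7a: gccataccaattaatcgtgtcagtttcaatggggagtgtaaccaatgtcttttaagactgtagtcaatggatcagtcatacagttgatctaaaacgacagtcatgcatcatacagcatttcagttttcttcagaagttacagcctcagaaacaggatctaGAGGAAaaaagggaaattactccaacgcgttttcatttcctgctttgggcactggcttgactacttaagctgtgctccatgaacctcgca
Clec4e: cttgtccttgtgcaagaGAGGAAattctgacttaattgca
Clec4d: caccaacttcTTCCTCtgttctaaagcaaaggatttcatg
Clec5a: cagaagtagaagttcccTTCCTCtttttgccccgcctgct

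The 6 letters were present on either strand within the 250 bases before a start in 6 of the 8 genes with an entry, namely Clec7a, Clec4d, Clec4e, Clec5a, Clec12a and Syk. Counted by entry, as some genes have more than 1 start, they were present in 7 of 10 entries of these genes and in 23.3% of the 32851 promoter entries searched. The upstream start of Syk had no match, and the 40 bases around the matches nearest the start in Clec12a and at the other Syk start overlap an annotated exon. The Clec7a match began 90 bases before the start shown, and those of Clec4e, Clec5a and Clec4d began 56, 55 and 240 bases before theirs. The windows of Clec4e and Clec5a held 2 matches each, of which only the match nearest the start is shown. No match was found in the windows of Fcer1g and Card9. The motif was searched after the sequences had been seen, and the sequences are those of the reference strain, not of FVB/N.

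In vehicle replicates 1 to 3, Clec7a had 10.3, 16.4 and 13.3 CPM, and in GSK3326595 replicates 1 to 3 it had 95.3, 62.4 and 44.8 CPM. Each treated library lay above each untreated one, and the lowest treated value was above the highest untreated value by more than the whole range of the vehicle group. The group means were 13.3 ± 3.02 and 67.5 ± 25.6 CPM (SD, n = 3 each), and the fitted log2 difference was 2.34 with an SE of 0.33. Without each library in turn the log2 difference of Clec7a ranged from 2.01, without GSK3326595 replicate 1, to 2.58, without GSK3326595 replicate 3. No other gene of the group had so narrow a range in proportion to its difference.

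**Figure D1:**
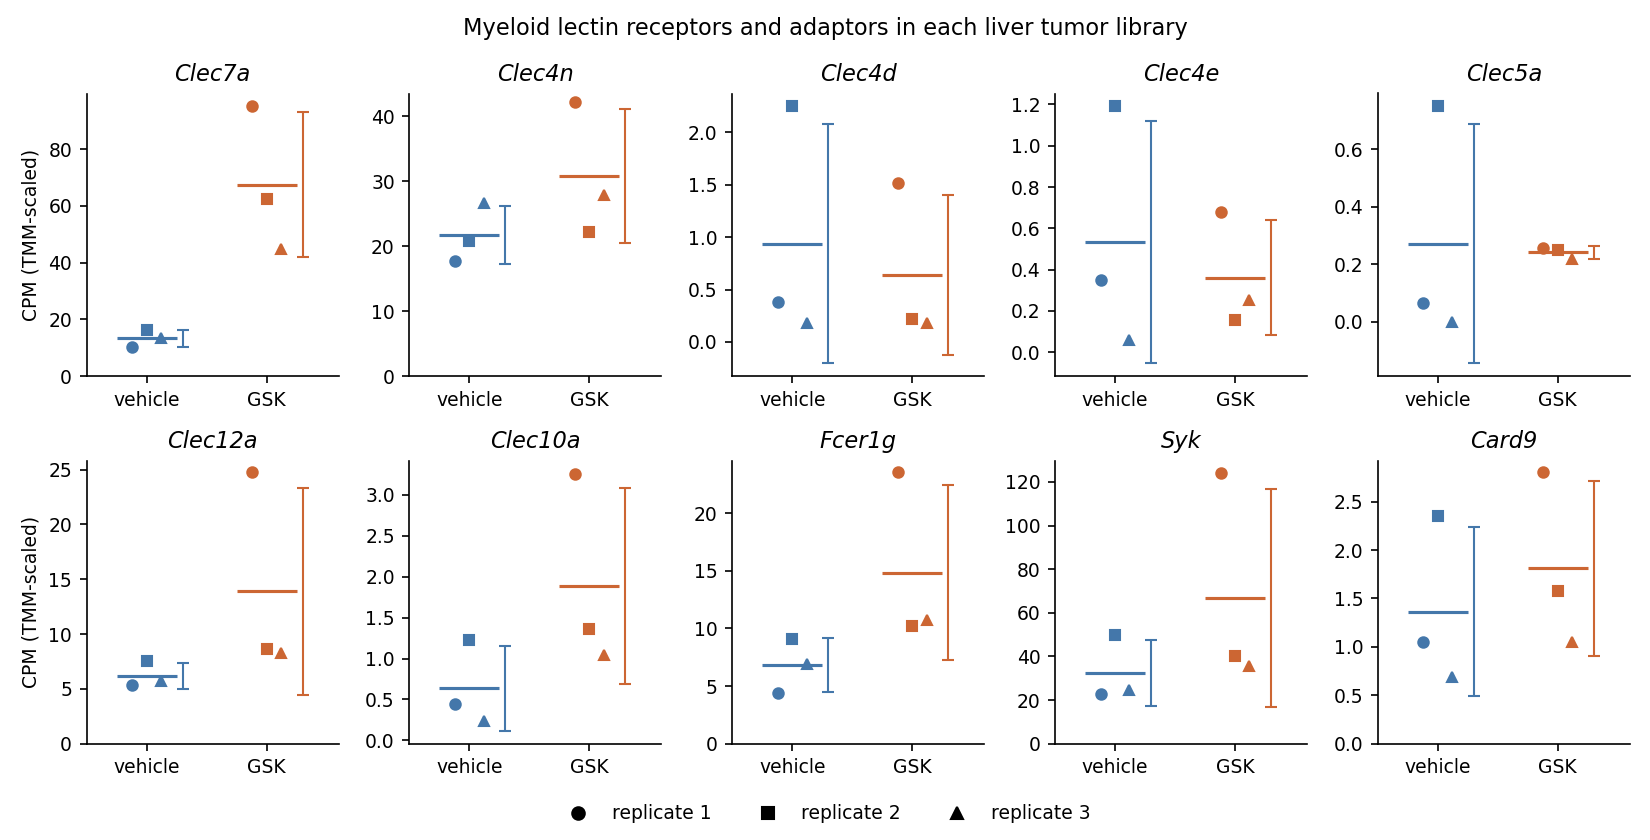
CPM (TMM-scaled) of each of the 10 genes in the 3 vehicle and 3 GSK3326595 libraries, each panel on its own scale; points are libraries, horizontal lines group means and bars ± 1 SD. The groups are apart for Clec7a, Clec12a and Fcer1g, and 7 genes, Clec7a among them, are highest in GSK3326595 replicate 1 while Clec4d, Clec4e and Clec5a are highest in vehicle replicate 2.

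Dectin-2, encoded by Clec4n (chr6:123229843-123247021, plus strand), recognises fungal mannans and depends on FcRγ. Clec4n had 17.8, 20.9 and 26.6 CPM in vehicle and 42.3, 22.1 and 28.0 CPM in GSK3326595. The groups overlapped, since GSK3326595 replicate 2 lay below vehicle replicate 3. The log2 difference was 0.50 ± 0.29 (SE), and 0.20 without GSK3326595 replicate 1.

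The 2 neighbours of Clec4n that also use FcRγ were close to the limit of detection. Clec4d (chr6:123262111-123275265, plus strand), which encodes a partner of Mincle, had 12, 66 and 6 counts in the vehicle libraries and 47, 7 and 5 counts in the GSK3326595 libraries. Clec4e (chr6:123281789-123289870, minus strand), which encodes Mincle, a receptor for mycobacterial glycolipid and for material from dying cells, had 11, 35 and 2 counts against 21, 5 and 7. In both genes vehicle replicate 2 was highest and GSK3326595 replicate 1 next, so the high values of each group lay in a single library. The log2 differences were -0.54 ± 1.15 for Clec4d and -0.54 ± 0.9999 for Clec4e (SE). Without vehicle replicate 2 they were 1.18 and 0.82, so the direction rested on that library.

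Clec5a (chr6:40574894-40585821, minus strand) encodes a receptor that pairs with the adaptor DAP12 (Tyrobp) and is known on neutrophils and monocytes. It had 2, 22 and 0 counts in the vehicle libraries and 8, 8 and 6 counts in the GSK3326595 libraries, and was left out of the fit. The count of 0 allows up to 0.0895 CPM in vehicle replicate 3, a limit of 3 counts that covers counting error only. The 22 counts of vehicle replicate 2 were again the highest value. The neutrophil markers, with 272.5 summed CPM in that library, moved with Clec4d, Clec4e and Clec5a there, and their part in these values was not tested.

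Clec12a (chr6:129342691-129365303, plus strand) encodes an inhibitory receptor that carries an ITIM, a tyrosine motif that recruits phosphatases. Clec12a had 5.35, 7.55 and 5.70 CPM in vehicle and 24.8, 8.65 and 8.23 CPM in GSK3326595. The groups did not overlap, though 2 of the treated libraries lay close above vehicle replicate 2. The log2 difference was 1.16 ± 0.48 (SE), and 0.44 without GSK3326595 replicate 1. Clec10a (chr11:70156197-70170834, plus strand) encodes a lectin for galactose and N-acetylgalactosamine found on macrophages and dendritic cells. It had 0.446, 1.23 and 0.239 CPM in vehicle and 3.26, 1.36 and 1.05 CPM in GSK3326595, with GSK3326595 replicate 3 below vehicle replicate 2. Its log2 difference was 1.57 ± 0.72 (SE), and 0.93 without GSK3326595 replicate 1.

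Of the signalling genes, the adaptor Fcer1g (chr1:171229572-171234365, minus strand) had 4.37, 9.05 and 6.95 CPM in vehicle and 23.6, 10.2 and 10.7 CPM in GSK3326595. The groups did not overlap, by a margin smaller than the spread of the vehicle libraries. Its log2 difference was 1.13 ± 0.44 (SE), and 0.62 without GSK3326595 replicate 1. The kinase Syk (chr13:52583173-52648792, plus strand) had 22.8, 49.6 and 24.6 CPM in vehicle and 124.2, 39.97 and 35.6 CPM in GSK3326595. Vehicle replicate 2 lay above 2 of the treated libraries, and the log2 difference of 1.04 ± 0.56 (SE) was 0.22 without GSK3326595 replicate 1. Card9 (chr2:26352176-26360918, minus strand), the adaptor downstream of Syk, had 1.05, 2.35 and 0.686 CPM in vehicle and 2.80, 1.58 and 1.05 CPM in GSK3326595. The log2 difference of Card9 was 0.42 ± 0.58 (SE), and -0.05 without GSK3326595 replicate 1. Card9 overlaps an antisense transcript, Gm13562. The libraries were strand-specific by the labels' protocols, but no source used here says if the counting was strand-specific too.

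**Figure D2:**
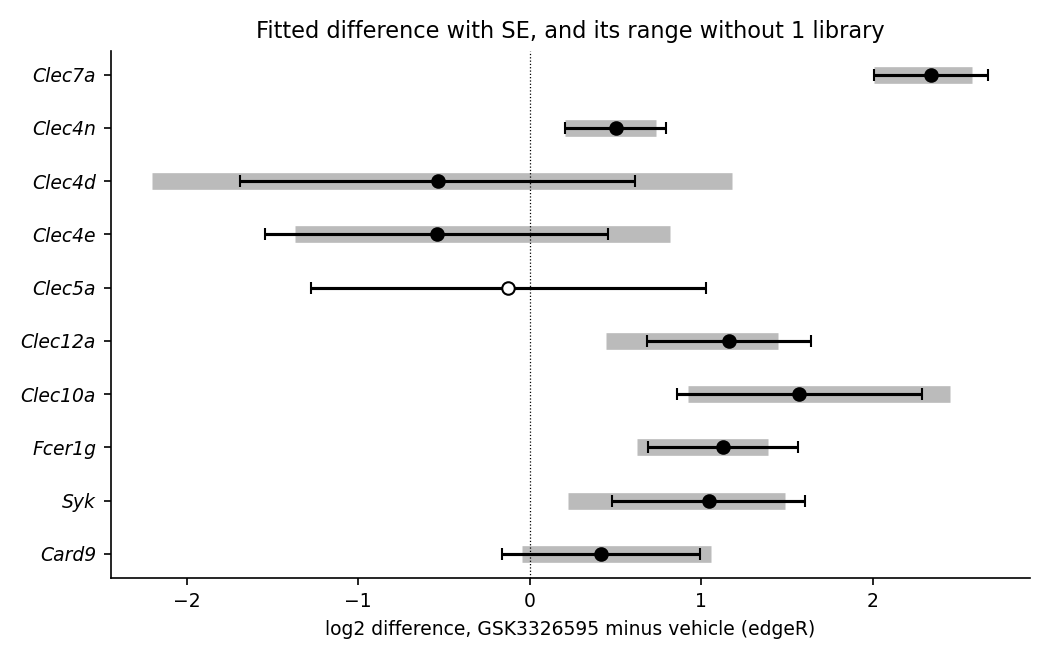
Log2 difference of each gene, GSK3326595 minus vehicle, as fitted by edgeR (points) with its SE (bars) and its range when each library is left out in turn (grey); Clec5a, open, comes from the fit without a filter on low counts. Clec7a stays between 2.01 and 2.58, and the grey ranges of Clec4d, Clec4e and Card9 cross 0.

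Across the 9 genes in the fit, the log2 difference was above 0 in 7 and below 0 in 2, with a median of 1.04. Over all 17012 genes tested, 53.1% had a log2 difference above 0 and the median was 0.03. The median of the 9 genes was 0.22 without GSK3326595 replicate 1. By edgeR 0 of the 9 genes passed an adjusted p of 0.05, where 0% of all genes tested passed, and limma-voom called 0. At an unadjusted p under 0.05 edgeR counted 3 of them, all higher, beside 5.45% of all genes higher and 3.81% lower. DESeq2 called Clec7a alone, beside 1.09% of all genes higher and 0.588% lower. The groups did not overlap in 3 of the 9 genes, each higher in GSK3326595 (Clec7a, Clec12a and Fcer1g), beside 6.72% of all genes higher and 7.66% lower. The choice of genes rested on this contrast, so these shares are given only for reference.

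Levels of different genes were compared as CPM per kilobase of exon. In vehicle, Clec4n was highest at 15.3 ± 3.18 CPM per kb, followed by Fcer1g at 7.77 ± 2.68, Clec7a at 5.05 ± 1.15 and Syk at 3.45 ± 1.603 (SD, n = 3 each). Fcer1g and Clec7a, and Clec7a and Syk, did not differ beyond their spread in that order. In GSK3326595, Clec7a stood first at 25.6 ± 9.71 CPM per kb, with Clec4n at 21.7 ± 7.29 and Fcer1g at 16.98 ± 8.65 within its spread, and Syk at 7.11 ± 5.34. Clec12a followed Syk in both groups, at 1.12 ± 0.214 and 2.51 ± 1.70 CPM per kb. Card9, Clec10a, Clec4d, Clec4e and Clec5a each had under 1 CPM per kb on average in both groups. The receptor of highest level was thus Clec4n in the vehicle group and Clec7a in the treated group, where the 2 receptors overlapped.

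All 10 genes had their highest treated value in GSK3326595 replicate 1, and 9 had their highest untreated value in vehicle replicate 2. The same treated library was highest in Ptprc, the pan-leukocyte gene CD45, with 23.3, 44.0 and 33.2 CPM in vehicle and 135.9, 69.1 and 51.4 CPM in GSK3326595. The 15 macrophage and Kupffer cell markers, all tested, summed to between 888 and 1383 CPM in vehicle and to 3099, 1128 and 1200 CPM in GSK3326595, and 12 of them had a log2 difference above 0. The 10 conventional dendritic cell markers summed to between 26.9 and 38.7 CPM in vehicle and between 40.7 and 97.2 CPM in GSK3326595, and all 9 tested were above 0. The 12 T cell markers summed to between 4.60 and 7.38 against between 15.01 and 33.3 CPM. No marker of these lists was at 0 in every library. The summed macrophage markers were thus high in a single treated library, GSK3326595 replicate 1. In that library Clec4f, Vsig4 and Marco of this list were at 0.129, 0.129 and 0.645 CPM, their lowest values. The other genes of the list except Cd163 were highest there, among them Timd4, Cd5l and Adgre1 at 36.2, 610.7 and 42.97 CPM. The genes of this list below 0 were Cd163, Marco and Vsig4, with log2 differences of -0.96, -2.36 and -0.98. The sums of the dendritic and T cell markers lay above the vehicle range in each treated library, for the dendritic list narrowly in GSK3326595 replicate 3. The groups were apart in 6 of the 9 tested dendritic genes, each higher, beside 6.72% of all genes higher. Of these, Flt3, Xcr1, Cd209a and Ccr7 had at most 15 counts in any vehicle library. They could pass the filter on low counts through the treated libraries alone, so this count leans towards higher values. The sums of NK cell markers (2.84 to 4.83 against 7.04 to 20.6 CPM) and of stellate cell and fibroblast markers (130.7 to 542.5 against 582.3 to 785.7 CPM) also lay apart. So did the sum of plasmacytoid dendritic cell markers (65.1 to 85.6 against 101.7 to 123.8 CPM), but most of it came from Bst2 and Tcf4. In both of these genes the groups overlapped, with means of 43.99 and 55.01 CPM for Bst2 and 29.95 and 50.5 CPM for Tcf4. The groups were apart in 2 of the 5 tested genes of this list, Siglech and Klk1, each higher, beside 6.72% of all genes higher. Their log2 differences were 3.20 ± 0.46 and 3.87 ± 0.75 (SE). Both were low in vehicle, at 0.366 and 0.113 CPM on average, and could pass the filter through the treated libraries. The 9 monocyte markers summed to between 1049 and 3872 CPM in vehicle and between 635 and 2053 CPM in GSK3326595, with overlapping groups. Most of that sum was Fn1, at 2308 and 1165 CPM on average, and 6 of the 9 genes had a log2 difference above 0. The groups were apart in 2 of the 9, Ccr2 and S100a4, each higher, beside 6.72% of all genes higher. Their log2 differences were 2.30 ± 0.62 and 1.66 ± 0.41 (SE), from 1.33 and 0.669 CPM on average in vehicle. The genes of this list below 0 were Cx3cr1, Fn1 and Chil3, at -0.21, -0.99 and -5.91. The sums of the B cell and endothelium markers overlapped between the groups. The part of these cell types in the lectin values was not tested beyond the ratios given next.

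**Figure D3:**
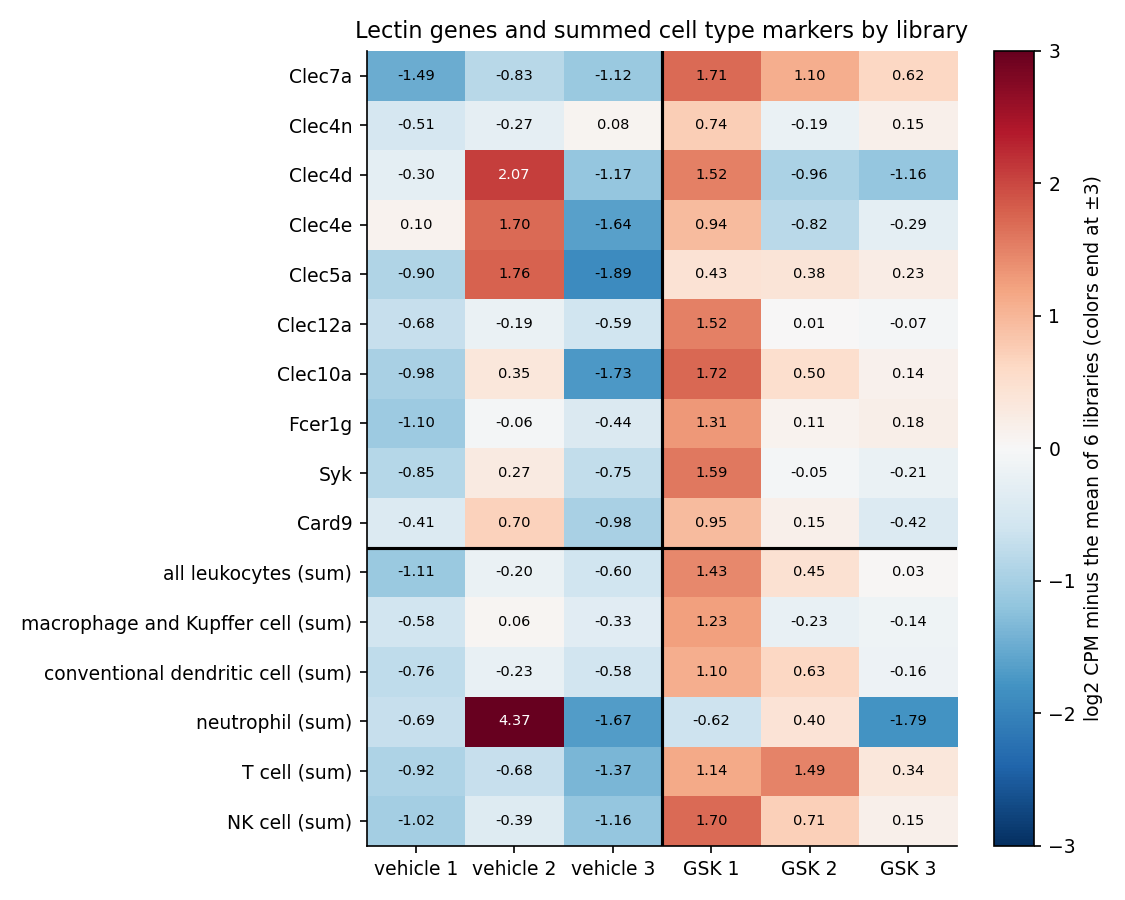
Log2 CPM of each gene (upper 10 rows) and log2 summed CPM of marker lists (lower 6 rows; all leukocytes is Ptprc alone) in each library, minus the row's mean of 6 libraries. Clec7a runs from -1.49 to -0.83 in vehicle and from 0.62 to 1.71 in GSK3326595, and vehicle replicate 2 holds the neutrophil value of 4.37 together with high Clec4d, Clec4e and Clec5a.

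Clec7a was set against these markers within each library, which removes any scaling between libraries. Its counts came to 44.3%, 37.2% and 40.04% of those of Ptprc in vehicle and to 70.1%, 90.3% and 87.3% in GSK3326595. The means were 40.5 ± 3.55% and 82.6 ± 10.9% (SD, n = 3 each), a log2 ratio of 1.03. Relative to the summed macrophage markers, Clec7a was at 1.16%, 1.18% and 1.26% in vehicle and at 3.08%, 5.53% and 3.74% in GSK3326595, a log2 ratio of 1.77. Relative to the summed dendritic cell markers it was at 38.4%, 42.3% and 43.7% against 98.1%, 88.8% and 110.1%, a log2 ratio of 1.26. By each of these 3 denominators the treated libraries lay above all untreated ones. The ratios use the same contrast that led to the choice of Clec7a, and the dendritic denominator was chosen after seeing the data, so they are a description only. Relative to the summed T cell markers the groups overlapped, at 165.3% to 289.6% in vehicle and 187.1% to 364.6% in GSK3326595 (log2 ratio 0.33). Relative to Tyrobp, the myeloid and NK cell adaptor DAP12, Clec7a was at 53.2% to 62.7% in vehicle and at 138% to 204.2% in GSK3326595, a log2 ratio of 1.54. The dendritic list holds Clec9a and Cd209a, and the T cell list holds Cd2, which are also described below.

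The other abundant genes of the group did not show this on all denominators. Clec4n was at 67.9 ± 17.8% of Ptprc in vehicle and 39.2 ± 13.2% in GSK3326595 (SD, n = 3 each), with overlapping groups, and at 2.01 ± 0.512% and 1.89 ± 0.487% of the macrophage markers. Clec12a was at 19.1 ± 3.35% against 15.6 ± 2.87% of Ptprc, but at 0.563 ± 0.0343% against 0.750 ± 0.0586% of the macrophage markers, where the groups did not overlap. Fcer1g likewise was at 20.1 ± 1.18% against 17.7 ± 3.03% of Ptprc and at 0.602 ± 0.0956% against 0.854 ± 0.0809% of the macrophage markers. Syk was at 94.8 ± 19.7% against 72.8 ± 17.1% of Ptprc and at 2.83 ± 0.667% against 3.51 ± 0.524% of the macrophage markers, with overlapping groups in both. Relative to the leukocyte gene, then, Clec7a had a higher mean share in the treated tumors while Clec4n, Clec12a, Fcer1g and Syk had lower ones. The low gene Clec10a also had a higher mean share of Ptprc, at 1.805 ± 1.04% against 2.14 ± 0.227%, with overlapping groups. Relative to Tyrobp the groups were apart in Fcer1g as well, at 28.55 ± 1.78% against 35.3 ± 2.60%, and overlapped in Clec4n, Clec12a, Clec10a and Syk.

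**Figure D4:**
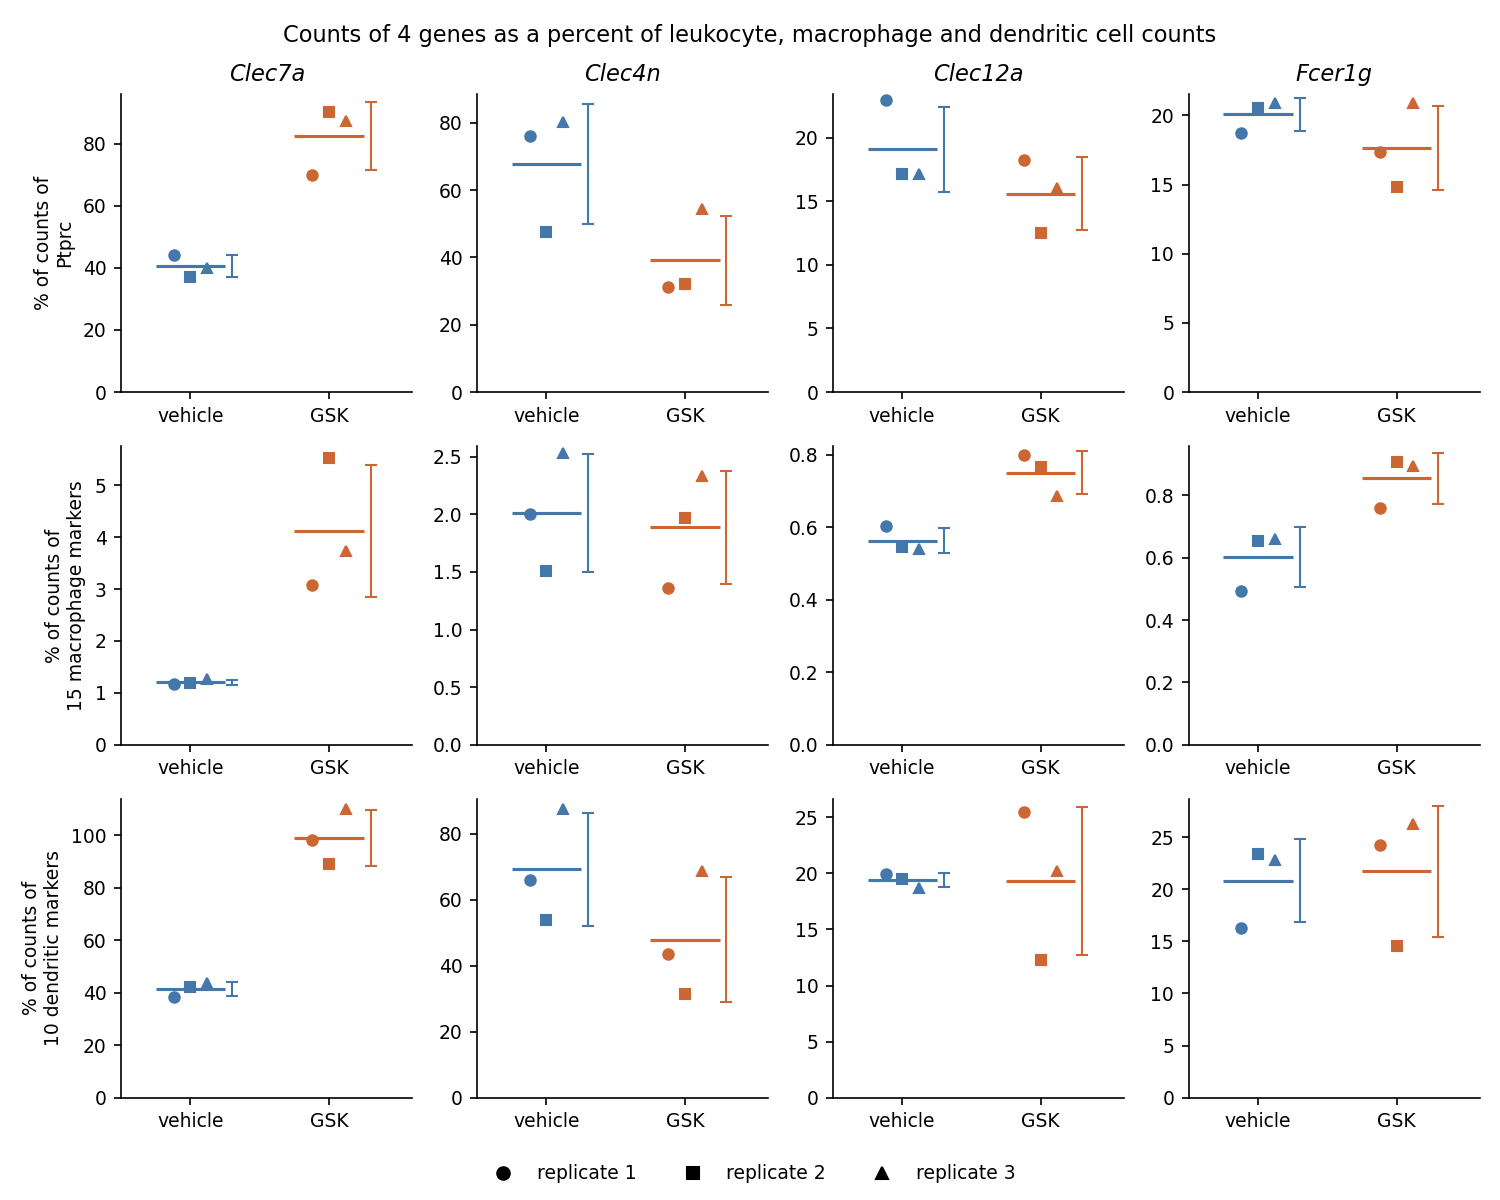
Counts of Clec7a, Clec4n, Clec12a and Fcer1g in each library as a percent of the counts of Ptprc (top), 15 macrophage markers (middle) and 10 dendritic cell markers (bottom); points are libraries, lines group means and bars ± 1 SD. Clec7a is separated between the groups in all 3 rows, Clec12a and Fcer1g only against the macrophage markers.

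The genes whose profile over the 6 libraries was closest to that of Clec7a were Thy1, Gm4759, Cd52, Tespa1 and Cd2. Likeness was the mean absolute difference between log2 CPM profiles centred on each gene's own mean, and it was 0.05 for Thy1, 0.13 for Gm4759, 0.16 for Cd52, 0.20 for Tespa1 and 0.20 for Cd2. Tespa1 and Cd2 were near the floor in vehicle, at 0.0298 to 0.0680 and 0.191 to 0.306 CPM. There the prior count of 2 used for log2 CPM draws differences towards 0. Their fitted log2 differences were larger than that of Clec7a, at 3.78 and 2.78. Both could pass the filter on low counts through the treated libraries alone. Thy1 and Cd2 encode surface proteins of T cells, Cd52 a small glycoprotein of lymphocytes and other leukocytes, and Tespa1 a protein of T cell development. Thy1 had 0.669, 1.12 and 0.865 CPM in vehicle and 5.996, 4.403 and 2.99 CPM in GSK3326595, in the same order of libraries as Clec7a. Thy1 was thus far lower than Clec7a in every library while its differences between libraries were nearly the same in size, as the measure asks. None of the other 9 lectin and signalling genes was among these 5. The measure asks for the same size of change in log2 CPM, and none of these 9 genes had a fitted log2 difference above 1.57, against 2.34 in Clec7a. Their absence is therefore no separate result.

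Other genes of the pathway were taken from lists written from textbook knowledge. Of 30 genes downstream of the receptors, all were tested and 24 had a log2 difference above 0, with a median of 0.45. By edgeR 0 passed over all genes tested, 7 had an unadjusted p under 0.05, all higher in GSK3326595 where 5.45% of all genes were, and DESeq2 and limma-voom called 0. Plcg2, a phospholipase activated by Syk, averaged 3.42 ± 1.23 CPM without and 8.74 ± 2.97 CPM with the drug (SD, n = 3 each), a log2 difference of 1.35 ± 0.41 (edgeR adjusted p = 0.499). Casp8, a caspase that also acts in lectin signalling, differed by 0.84 ± 0.26, Prkcd, the kinase that phosphorylates Card9, by 0.85 ± 0.31, and Inpp5d, the phosphatase SHIP1, by 0.96 ± 0.35 (edgeR adjusted p = 0.504, 0.522 and 0.522). The direct partners of Card9 differed little, with Bcl10 at -0.05 ± 0.27 and Malt1 at -0.02 ± 0.29.

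Of 20 output genes of the pathway, 11 were tested and 9 of these had a log2 difference above 0 (median 0.68). By edgeR 0 passed over all genes and 0 had an unadjusted p under 0.05, and DESeq2 and limma-voom called 0. Tnf, an inflammatory cytokine, had 0.414, 0.272 and 0.448 CPM in vehicle and 2.26, 0.589 and 0.397 CPM in GSK3326595, so its mean difference came from GSK3326595 replicate 1 (log2 difference 1.505 ± 0.71, edgeR adjusted p = 0.569). Il1a differed by 0.98 ± 0.51, Nos2, the inducible nitric oxide synthase, by 1.497 ± 0.96, and Egr1, an immediate early transcription factor, by -0.95 ± 0.72 (edgeR adjusted p = 0.601, 0.674 and 0.729). The groups overlapped in all 11 genes tested.

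Of 13 partner receptors and endogenous ligands of Dectin-1, 9 had a log2 difference above 0 (median 0.44). By edgeR 0 passed, 1 was higher at an unadjusted p under 0.05 and none lower, near the shares of all genes (5.45% higher and 3.81% lower), and DESeq2 and limma-voom called 0. That gene was Itgb2, the shared chain of the β2 integrins, which averaged 25.1 ± 9.19 CPM in vehicle and 50.7 ± 23.6 CPM with the drug, a log2 difference of 1.01 ± 0.40 (edgeR adjusted p = 0.526). Tlr6 differed by 1.16 ± 0.51, Tlr4 by 1.03 ± 0.47, and Cd14, a co-receptor of Tlr4, by -1.73 ± 0.80 (edgeR adjusted p = 0.549, 0.556 and 0.557). Cd14 had 4.715, 15.95 and 2.12 CPM in vehicle and 3.77, 1.86 and 1.23 CPM in GSK3326595. Its groups overlapped, and vehicle replicate 2 held its highest value. Lgals9, which encodes galectin-9, a ligand of Dectin-1, was expressed at 172.6 to 231.1 CPM in all 6 libraries, with a log2 difference of 0.20 ± 0.18.

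Among 15 other receptors that use FcRγ or DAP12, or regulate them, 9 were tested and 8 had a log2 difference above 0 (median 0.71). By edgeR 0 passed, 1 was higher at an unadjusted p under 0.05 (5.45% of all genes), DESeq2 called 1 higher (1.09% of all genes) and limma-voom 0. The call was Siglech, a lectin of plasmacytoid dendritic cells that pairs with DAP12, which averaged 0.366 ± 0.124 CPM in vehicle and 3.41 ± 1.24 CPM with the drug, a log2 difference of 3.20 ± 0.46 (edgeR adjusted p = 0.455). The Fc receptor Fcgr4 differed by 0.71 ± 0.39, Cd300lb by 1.18 ± 0.76 and the inhibitory Fcgr2b by 0.89 ± 0.63 (edgeR adjusted p = 0.625, 0.679 and 0.707). The adaptor Tyrobp itself had 16.5, 30.8 and 23.4 CPM in vehicle and 69.1, 30.5 and 28.0 CPM in GSK3326595, with overlapping groups and, as in Fcer1g, a maximum in GSK3326595 replicate 1.

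Of 28 other C-type lectins, 21 were tested and 19 had a log2 difference above 0 (median 0.56). By edgeR 0 passed, 5 had an unadjusted p under 0.05, all higher (5.45% of all genes), DESeq2 called 1 higher (1.09% of all genes) and limma-voom 0. The call was Cd209d, a relative of DC-SIGN, which rested on very few reads, with 0, 0.102 and 0.0298 CPM in vehicle and 0.613, 0.744 and 0.577 CPM in GSK3326595. Its relative Cd209a, known from monocyte-derived dendritic cells, differed by 2.04 ± 0.52, the scavenger lectin Colec12 by 0.91 ± 0.30 and Mgl2, the close paralog of Clec10a, by 1.36 ± 0.48 (edgeR adjusted p = 0.459, 0.522 and 0.522). The mannose receptor Mrc1, a lectin of macrophages and sinusoidal endothelium, had 64.0, 94.8 and 74.4 CPM in vehicle and 118.3, 77.4 and 43.0 CPM in GSK3326595 (log2 difference 0.03 ± 0.37). Clec4f, the lectin of Kupffer cells, varied between libraries of both groups, from 0.129 to 24.3 CPM. Because the filter could keep a gene through the treated libraries alone, counts above 0 in the lists with low genes lean towards higher values.

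Of the 7 receptor genes, 6 lie on chromosome 6, Clec7a and Clec12a in the Dectin-1 cluster, Clec4n, Clec4d and Clec4e in the Dectin-2 cluster, and Clec5a apart from both. Within 250 kb of the Clec7a start, 11 of 18 genes (the protein-coding ones and Clec7a) were tested, 10 had a log2 difference above 0, and the median was 2.19. Clec1a, 20.8 kb from Clec7a and known from endothelium, differed by 0.61 ± 0.57, and Clec9a, a receptor of cross-presenting dendritic cells for dead cells, by 1.19 ± 0.62. Olr1, the nearest gene on the other side, was under the filter with at most 0.238 CPM. Gabarapl1, an autophagy gene 60.4 kb away, differed by -0.40 ± 0.44. Of 7 NK receptor genes beyond it, Klre1, Klrc3 and Klri1 were under the filter, and the 4 tested had log2 differences from 2.28 ± 0.73 in Klrc2 to 2.85 ± 0.50 in Klrd1. Klrd1, Klrc1 and Klrc2, and Cd69 on the other side of Clec7a, were low genes, each with at most 0.507 CPM in any vehicle library. They could pass the filter through the treated libraries. Within 250 kb of the Clec4n start, 5 of 9 genes were tested, 3 had a log2 difference above 0, and the median was 0.41.

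**Figure D5:**
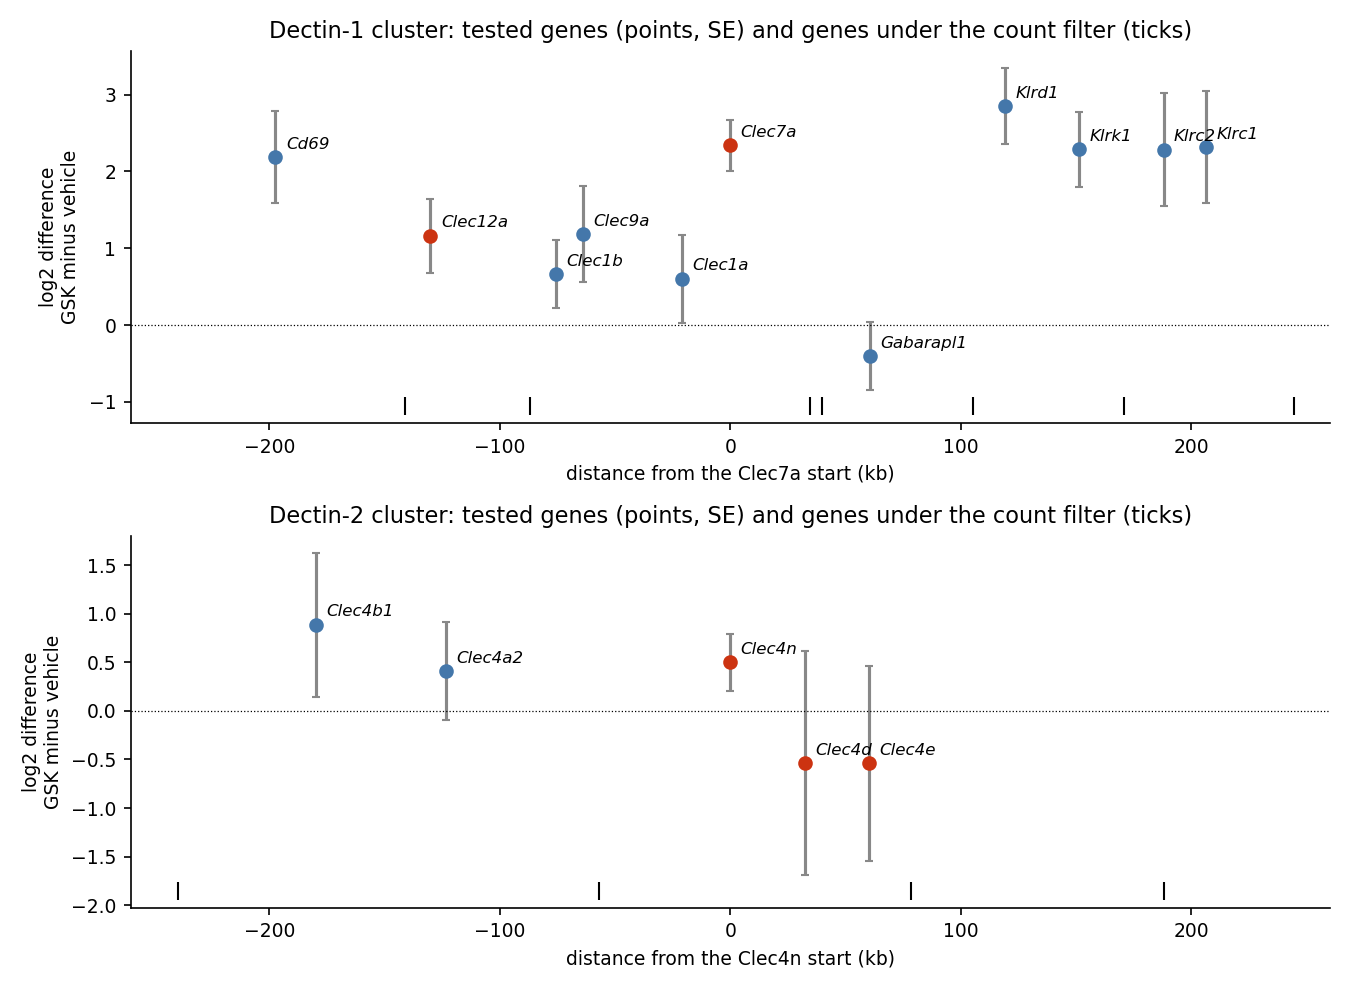
Log2 difference (GSK3326595 minus vehicle, points with SE) of tested genes against distance from the Clec7a start (top) and the Clec4n start (bottom), with rising mm10 coordinates to the right; red points are the lectin genes described here and ticks mark genes under the count filter. The genes directly beside Clec7a lie between -0.40 and 1.19, while Cd69 and the 4 tested NK receptor genes lie between 2.19 and 2.85.

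The lectin neighbours in both clusters and the adjoining Clec2 genes formed a list of 15 genes, of which 10 were tested and all 10 had a log2 difference above 0 (median 0.78), as did 53.1% of all genes tested. By edgeR 0 passed, 3 had an unadjusted p under 0.05, all higher as in 5.45% of all genes, while DESeq2 called 1 higher, as it did 1.09% of all genes, and limma-voom 0. The call was Clec2i, which had 0.223, 0.714 and 0.448 CPM in vehicle and 3.87, 1.95 and 1.66 CPM in GSK3326595 (log2 difference 2.43 ± 0.55, edgeR adjusted p = 0.455). Cd69, an activation marker of lymphocytes, differed by 2.19 ± 0.60 and Clec2d, a ligand of NK receptors, by 1.71 ± 0.54 (edgeR adjusted p = 0.482 and 0.508). Clec2d had 8.79, 16.5 and 14.6 CPM in vehicle and 47.3, 68.1 and 15.3 CPM in GSK3326595, so GSK3326595 replicate 3 lay within the vehicle range. The Clec4a genes of the Dectin-2 cluster, which encode relatives of Clec4n, had small differences, from 0.17 ± 0.56 in Clec4a1 to 0.68 ± 0.43 in Clec4a3. Genes of this cluster are close copies of each other, so reads may be divided among them.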

How the data were processed

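Libraries from total RNA were strand-specific (TruSeq), per the labels' protocols. The authors deposited raw expected counts per gene. The submitters' processing notes name cutadapt, STAR, Picard and RSEM, without versions, and the build mm10. Of the values, 12.3% were not whole (tolerance 0). Of 47643 genes, 47224 matched GENCODE M21 (same build), which gave positions (1-based) and exon-union lengths. Expected counts were rounded, filtered with filterByExpr (minimum count 10; 17012 genes), TMM-scaled and tested with edgeR 4.0.16 (quasi-likelihood, two-sided, Benjamini-Hochberg, threshold 0.05) in R 4.3.3. The SE is the log2 difference over the square root of F. For log2 CPM the prior count was 2. The same genes were fitted with DESeq2 1.42.0 and with limma-voom (limma 3.58.1). The edgeR, DESeq2 and limma-voom fits were tested on simulated counts. The 10 genes and all lists were chosen with earlier results of these data known. Named were these genes, Prmt5, up to 4 genes of smallest p per list, the 5 genes closest to Clec7a, and, chosen after their values were seen, Bcl10, Malt1, Lgals9, Tyrobp, Ptprc, Mrc1, Clec4f, the mast cell genes Cpa3, Mcpt4, Ms4a2 and Fcer1a, the Clec4a genes and the neighbours of Clec7a. Single genes of the other marker lists were also named after their values were seen. Alternatives were other scalings, filters and tools, the replicate number as a block, other denominators, and each library left out in turn. Libraries held 25814339 to 33621083 counts.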

Additional observations from a re-analysis of the deposited data

How the results depend on the processing

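The dendritic cell, T cell and Tyrobp denominators were chosen after seeing the data. By edgeR the count of genes called was 0 higher and 0 lower, over all genes and in the pathway lists, for each scaling and filter tried, with the replicate block, by limma-voom, and when any library was left out. The unadjusted p of edgeR was under 0.05 in 927 genes that were higher and 648 that were lower. DESeq2 called 186 genes higher and 100 lower, 3 of them higher in the pathway lists; the cause was not tested. The median log2 difference of the lectin genes, 1.04, ranged from 0.22 (without GSK3326595 replicate 1) to 1.34 without each library. The log2 ratio of Clec7a to Ptprc, 1.03, was 1.77 with the macrophage markers as denominator and 1.26 with the dendritic cell markers, 1.54 with Tyrobp and 0.33 with the T cell markers, and 0.96 to 1.13 without each library. Limma-voom gave Clec4e a log2 difference of 0.02 in place of -0.54. The labels do not say if replicate numbers pair the samples. Across genes, deviations from the group means correlated at -0.07, 0.07 and 0.32 in same-numbered libraries. Between differently numbered libraries they correlated at -0.43 to 0.32. With 3 libraries per group these values cannot decide whether the samples were paired. With the replicate block the median was 0.86, Clec7a was at 2.29, and the block changed no call. Clec5a entered only the fit with no filter on low counts (-0.13 ± 1.15), and at 1 CPM in 3 libraries Clec4d and Clec4e dropped out. Depth limited Clec4d, Clec4e and Clec5a, whose libraries held as few as 5, 2 and 0 counts.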

Other observations

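FcRγ also serves the high-affinity IgE receptor of mast cells. Of 7 mast cell and basophil markers, only Kit passed the filter on low counts, and the others had most of their reads in a single treated library. Cpa3, a mast cell protease, had 8.96 CPM in GSK3326595 replicate 2 and at most 0.159 CPM in the other 5 libraries, and Mcpt4 had 8.25 CPM there and at most 0.287 CPM elsewhere. The IgE receptor chains Ms4a2 and Fcer1a had 0.713 and 0.341 CPM in that library and at most 0.0319 CPM in the others. Fcer1g itself had 10.2 CPM in that library and 10.7 CPM in GSK3326595 replicate 3.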
